A study of Mus musculus with 2 samples.

Results

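The clustered histone genes of the mouse encode the linker histone H1 and the core histones H2A, H2B, H3 and H4. They were taken here as all genes whose symbol began with Hist1h, Hist2h, Hist3h or Hist4h and that had a protein-coding transcript in the deposited annotation. This gave 67 members of 55536 annotated genes. A further 3 genes with such symbols, Hist3h2bb-ps, Hist1h2aj and Hist1h2al, had no protein-coding transcript and were left out. The members comprised 6 H1, 18 H2A, 18 H2B, 12 H3 and 13 H4 genes. In the mm10 assembly, 54 of them lay on chromosome 13 (chr13:21715763-23934851), 10 on chromosome 3 (chr3:96219865-96270132), 2 on chromosome 11 and 1, Hist4h4, on chromosome 6.

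The series held 2 libraries of a single group. The cells were macrophages differentiated in culture from bone marrow of C57BL/6J mice, and had received lipid A at 100 ng/ml for 90 min. Lipid A, the membrane anchor of bacterial lipopolysaccharide, is a ligand of TLR4. RNA of the nucleoplasmic fraction was depleted of ribosomal RNA and sequenced, from 1 µg of RNA in replicate 1 and 500 ng in replicate 2. Both libraries are labelled as biological replicates of the same donor entry, so their spread may be partly technical. No unstimulated, cytoplasmic or other library was analysed here, so no comparison between conditions and no p-value is given.

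Most clustered histone genes are switched on when cells copy their DNA in S phase. Their short, intronless transcripts end after a conserved stem-loop rather than in a poly(A) tail. The stem-loop is bound by the protein SLBP, and the transcript is cut just downstream with the help of the U7 small nuclear ribonucleoprotein. In cells that have left the cycle, some of these genes are also known to give polyadenylated transcripts that run past the stem-loop.

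A stem-loop of 6 base pairs with a loop of 4 bases was found after the coding sequence in the annotated transcripts of 44 of the 67 members. It occurred in 6 versions. The stem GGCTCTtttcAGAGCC stood in 26 genes of the classes H1, H2A, H2B and H3, and its form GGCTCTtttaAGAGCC in 6 genes of H1, H2B and H3. Only Hist2h2ac held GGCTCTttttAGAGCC. The H4 genes used other stems: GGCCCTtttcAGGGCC in 7 of them, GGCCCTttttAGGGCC in Hist1h4i and Hist2h4, and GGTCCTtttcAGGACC in Hist1h4b and Hist1h4j. The stem-loops of selected members of each class, which include all 6 versions, are shown with up to 5 bases on each side, the paired bases in capitals.
Hist1h1c: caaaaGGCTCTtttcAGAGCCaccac
Hist2h2aa2: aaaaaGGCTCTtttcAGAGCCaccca
Hist3h2a: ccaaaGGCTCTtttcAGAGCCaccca
Hist2h2ac: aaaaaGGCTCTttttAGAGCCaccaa
Hist1h2bg: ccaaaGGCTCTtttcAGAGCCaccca
Hist1h3c: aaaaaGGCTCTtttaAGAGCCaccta
Hist1h4m: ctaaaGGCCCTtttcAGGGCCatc
Hist1h4b: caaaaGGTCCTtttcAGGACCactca
Hist1h4i: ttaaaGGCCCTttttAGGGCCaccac
In the deposited annotation, the transcripts of 22 members ended 3 to 74 bases after the stem-loop. Those of another 22 ran past it by 151 to 4884 bases. A further 13 were annotated as ending at the stop codon, and 10 had bases after it but no stem-loop among them.

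Library depth and composition bear on every level below. Estimated counts over the annotated genes came to 22412217 for replicate 1 and 14893750 for replicate 2. TPM is a transcript's share of all transcripts in its library, corrected for length and scaled to a fixed total. Features with an effective length under 200 bases took 73.9% of all TPM in replicate 1 and 57.0% in replicate 2, and mitochondrial genes took 4.98% and 12.1% of the counts. All 9 macrophage markers stood at 10 TPM or more in both libraries. No marker of neutrophils, T, NK and B cells, erythroid cells or stromal and endothelial cells reached 1 TPM in both by the first quantification. By the second, the erythroid gene Alas2 (1.43 and 2.78 TPM) and the endothelial gene Pecam1 (3.53 and 13.4 TPM) did. Of the 6 marrow progenitor markers, Kit did, at 1.40 and 2.52 TPM, while Elane was listed at 0. In such bulk RNA, fewer cells of a type and less RNA per cell cannot be told apart.

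The clustered histone genes took a small share of the reads. Their summed level was 102 TPM in replicate 1 and 54.9 TPM in replicate 2. In replicate 1 the members took 2061 estimated counts, or 0.00920% of the total (95% Wilson interval 0.00881% to 0.00960%). In replicate 2 they held 665 counts, or 0.00446% (0.00414% to 0.00482%), which is below the interval of replicate 1. The median level over the members was 0.600 TPM in replicate 1 and 0.30 TPM in replicate 2. Over all 21901 genes with a protein-coding transcript, the medians were 0.220 and 0.270 TPM. By the second quantification of the same libraries, the order was reversed: 0.489 and 0.226 TPM for the members against 0.667 and 1.02 TPM. At 1 TPM or more in both libraries stood 14 members (20.9%), against 39.1% of the protein-coding genes. By the second quantification, 13 members (19.4%) did, against 44.5%, and 12 members did so in both. With TPM rescaled to sum to the same total over the protein-coding genes alone, 28 of the 67 members passed 1 TPM. Of the 21901 protein-coding genes, 10294 (47.0%) did, so the shortfall of the members was smaller on this scale. The rescaled medians were 2.68 and 0.765 TPM for the members, above the 0.983 and 0.688 TPM of the protein-coding genes.

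A few members carried most of the signal. Hist3h2a alone held 30.8% of the members' counts in replicate 1 and 26.2% in replicate 2, and the 10 members with the most counts held 70.3% and 69.1%. At the other end, 6 members were listed at 0 in both libraries and both quantifications. They were Hist1h1t, Hist1h2aa and Hist1h2ba, which encode testis forms of H1, H2A and H2B, and Hist1h2ah, Hist1h2bl and Hist3h2ba. For a member of the median effective length (311 bases in replicate 1 and 327 in replicate 2), the 3 counts that a count of 0 allows would be 0.277 and 0.531 TPM. This floor lies under the members' median of 0.600 TPM in replicate 1 and above their median of 0.30 TPM in replicate 2. Levels under it were not resolved at this depth. The order of the levels was also only partly resolved. Among the 15 members with the highest means, 13 of the 14 pairs of neighbours had overlapping deposited TPM intervals in each library, and 12 had means closer than the larger SD.

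**Figure D1:**
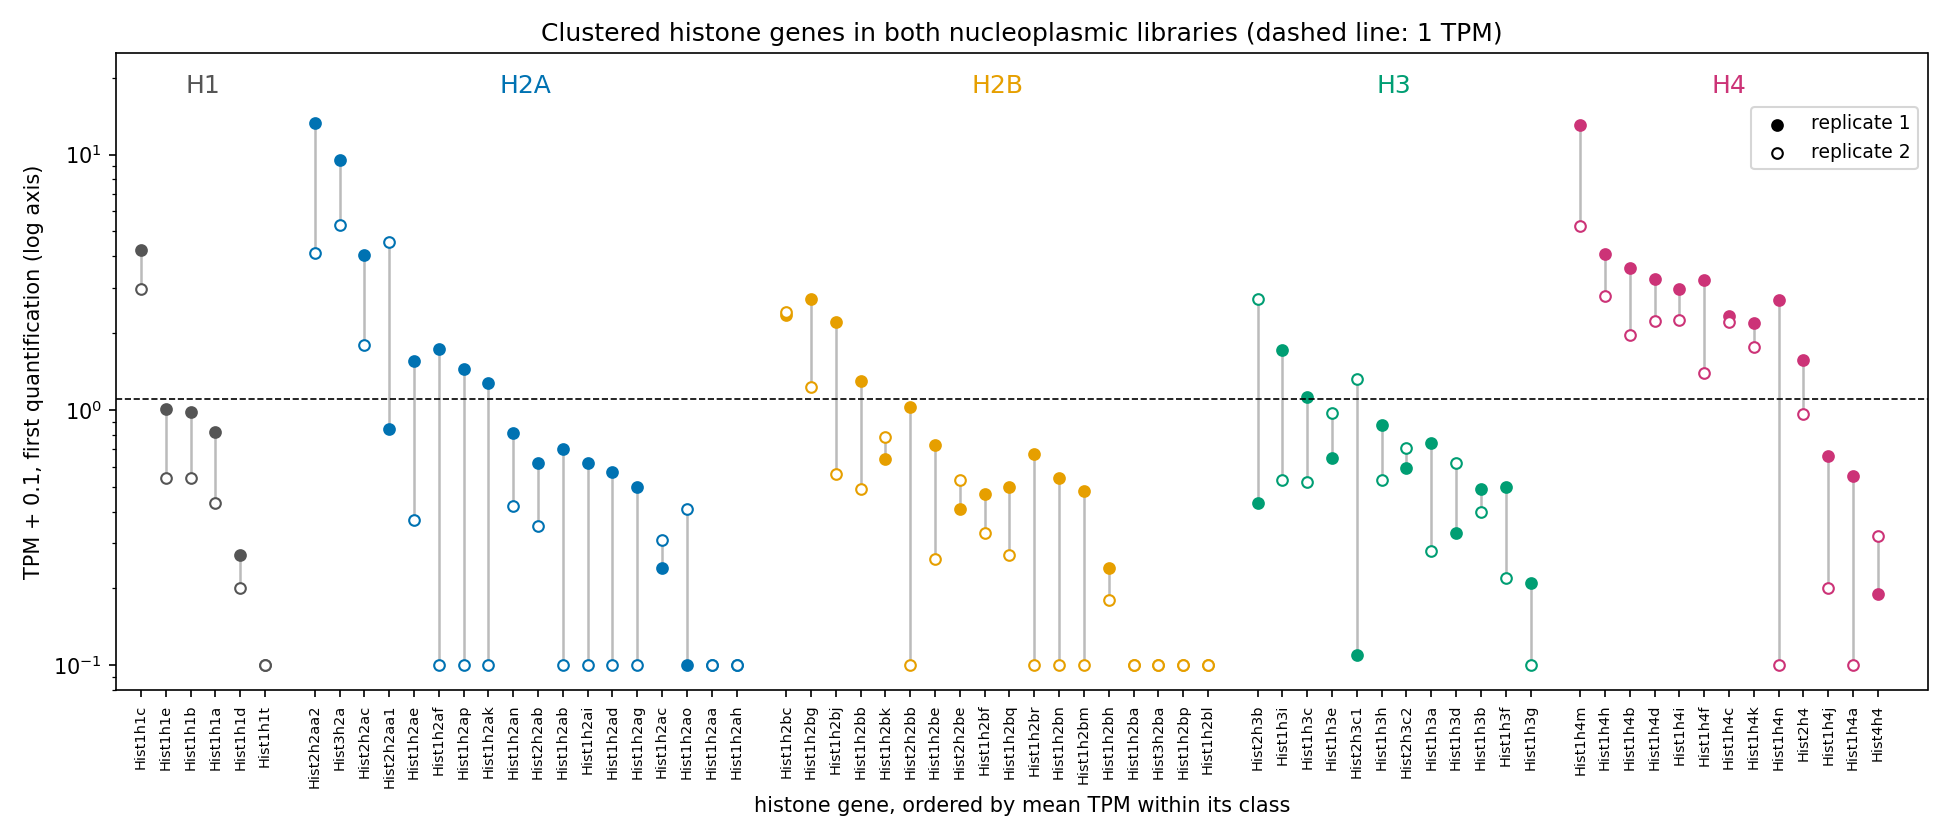
Level of each of the 67 clustered histone genes (TPM of the first quantification plus 0.1, log axis) in replicate 1 (filled) and replicate 2 (open), by histone class and ordered by mean. The highest levels are in H2A and H4, most filled points lie above their open partners, and 8 of the 13 H4 genes lie above 1 TPM in both libraries.

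The linker histone H1, which binds the DNA between nucleosomes, was represented by Hist1h1c, the gene of H1.2. It stood at 4.12 TPM (192 counts) in replicate 1 and 2.88 TPM (67 counts) in replicate 2, a mean of 3.50 ± 0.877 TPM (SD, n = 2). Its annotated transcript (chr13:23738808-23740367) runs 840 bases past the stem-loop, and 91.5% of its 50-base windows occur in no other gene. The other H1 genes were lower: Hist1h1e stood at 0.910 and 0.440 TPM and Hist1h1b at 0.880 and 0.440 TPM. Hist1h1d stood at 0.17 and 0.10 TPM. The levels of these genes did not reach that of Hist1h1c in either library. The H1 genes together made up 6.69% and 7.63% of the members' summed TPM.

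Histone H2A pairs with H2B on the outer faces of the nucleosome. The H2A genes made up 35.8% of the members' summed TPM in replicate 1 and 30.5% in replicate 2, most of it from Hist2h2aa2, Hist3h2a and Hist2h2ac. Hist2h2aa2 (chr3:96239749-96240276) stood at 13.2 and 4.03 TPM, from 141 and 22 counts. Its neighbour Hist2h2aa1 has the same coding sequence, and neither of them has a 50-base window of its own. Hist2h2aa1 is named here for that reason, after its values were seen. It stood at 0.740 TPM in replicate 1 and 4.44 TPM in replicate 2, with a deposited interval in replicate 2 that overlaps that of Hist2h2aa2. By the second quantification Hist2h2aa2 was the higher of these genes in both libraries, at 6.93 and 2.51 TPM against 0.920 and 1.53 TPM. Their summed counts, 150.1 in replicate 1 and 50.7 in replicate 2, do not depend on how reads were split between them. Both overlap predicted genes, Hist2h2aa2 on the opposite strand (Gm20632, 0.85 and 0.95 TPM) and Hist2h2aa1 on both strands, and whether the counting used strand is not given in the sources used here.

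Hist3h2a, the H2A gene of the small cluster on chromosome 11 (chr11:58954685-58956830), had the most counts of any member, 634 and 174. Its level was 9.45 TPM in replicate 1 and 5.22 TPM in replicate 2. Its transcript runs 1643 bases past the stem-loop, and the gene overlaps Trim17 on the same strand, with which it shares most of the windows that are not its own. Of its windows, 68.5% were in no other gene. Trim17, a ubiquitin ligase gene, had 91.0 and 79.0 counts, or 0.930 and 1.62 TPM. Hist2h2ac stood at 3.96 and 1.69 TPM. The other H2A genes had means under 1 TPM, and 2 of the 18, Hist1h2aa and Hist1h2ah, were at 0 in both libraries.

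H2B genes were lower as a class, with 12.7% and 11.0% of the summed TPM, and 4 of the 18 were at 0 in both libraries of the first quantification. Hist1h2bc stood at 2.25 TPM in replicate 1 and 2.31 TPM in replicate 2, close to each other. It is among the 5 members with an annotated intron and has no stem-loop in its transcript. Hist1h2bg stood at 2.61 and 1.13 TPM and Hist1h2bj at 2.10 and 0.460 TPM. Hist1h2be was lower in TPM, at 0.630 and 0.160, with 48.9 and 6.09 counts over a long transcript that overlaps Hist1h1e on the same strand.

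The H3 genes, whose products form the core tetramer with H4, had 6.44% of the summed TPM in replicate 1 and 14.1% in replicate 2. None of the 12 reached 1 TPM in both libraries. Hist1h3i stood at 1.61 and 0.430 TPM and Hist1h3c at 1.02 and 0.420 TPM. By TPM, 5 of the 12 were higher in replicate 2, namely Hist1h3d, Hist1h3e and the 3 Hist2 genes. Hist2h3b was at 0.330 TPM in replicate 1 and 2.62 TPM in replicate 2, and Hist2h3c1 at 0.0100 and 1.22 TPM. Neither has a window of its own, and Hist2h3c1 lies within Gm20634 on the same strand, which stood at 1.27 and 1.23 TPM. Hist2h3c2, named for its coding sequence shared with Hist2h3c1, stood at 0.490 and 0.610 TPM. The sum of these 3 genes was 17.4 counts in replicate 1 and 55.0 in replicate 2.

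The H4 genes had the highest median of any class, 2.17 TPM against 0.593 for H1, 0.450 for H2A, 0.293 for H2B and 0.575 for H3. They made up 38.5% and 36.8% of the summed TPM, and 8 of the 13 passed 1 TPM in both libraries. All 13 encode the same protein of 103 residues. Hist1h4m (chr13:21811746-21812147) was highest, at 13.0 TPM (81.9 counts) and 5.16 TPM (17.0 counts). It shares its coding sequence with Hist1h4n, a gene named for this after its values were seen, which stood at 2.59 TPM in replicate 1 and at 0 in replicate 2. Hist1h4h followed with 3.97 and 2.69 TPM, Hist1h4b with 3.51 and 1.87, and Hist1h4d with 3.16 and 2.13. Hist1h4i (2.88 and 2.14 TPM), Hist1h4f (3.12 and 1.29), Hist1h4c (2.24 and 2.10) and Hist1h4k (2.08 and 1.66) were also above 1 TPM in both libraries. Each of these H4 genes was higher in replicate 1 on this scale. The class shares depend on the scale: by estimated counts, which are not corrected for length, H4 held 22.8% ± 0.481 and H2A 40.9% ± 5.04 of the members' counts (SD, n = 2).

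Transcripts that end near the stem-loop and those that run past it had like medians. Of the 22 members ending near it, 6 reached 1 TPM in both libraries, with a median of 0.698 TPM. Of the 22 that run past it, 6 did, with a median of 0.583 TPM. Among the 13 annotated as ending at the stop codon, Hist1h4k did, and among the 10 others without a stem-loop, Hist1h2bc. Transcripts without a stem-loop in their annotated sequence took 16.2% of the members' TPM in replicate 1 and 17.1% in replicate 2, and 23.2% and 27.4% by the second quantification.

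Shared sequence limits how far single members can be told apart. The H4 genes encode 1 protein and the 12 H3 genes 2, while the 18 H2A genes encode 9, the 18 H2B genes 11 and the 6 H1 genes 6. The share of a member's 50-base windows found in no other gene, on either strand, had a median of 45.0%. By class the median was 98.9% for H1, 60.5% for H4, 47.5% for H2B, 38.0% for H3 and 27.0% for H2A. In 5 members, Hist2h2aa1, Hist2h2aa2, Hist2h2bb, Hist2h3b and Hist2h3c1, no window was unique. Hist1h1a, Hist1h1b, Hist1h1t and Hist2h2be had only unique windows. A short transcript of Hist1h2bq is identical to one of Hist1h2br.

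The quantifications differed by more than 2-fold in mean TPM + 0.1 for 6 of the 37 members with a mean of 10 or more counts in either (16.2%), against 28.8% of the protein-coding genes. Hist2h2be was the extreme: it stood at 0.310 and 0.430 TPM (26 and 18 counts) by the first quantification and at 2.05 and 1.29 TPM (327 and 139 counts) by the second. Hist4h4, the single gene of its cluster, had 0.0900 and 0.220 TPM by the first and 0.392 and 0.829 TPM by the second. Hist1h1d had 0.17 and 0.10 TPM by the first and 0.373 and 0.491 TPM by the second. These 3 genes have 100%, 91.9% and 97.8% unique windows, so they share few windows or none with other genes. Hist2h2ab had 0.520 and 0.250 TPM by the first and 0.715 and 1.14 TPM by the second. In the other direction, Hist2h3c1 had 0.0100 and 1.22 TPM by the first and 0 and 0.198 TPM by the second. Hist2h2aa1, the last of the 6, had 0.740 and 4.44 TPM by the first and 0.920 and 1.53 TPM by the second. Most other members were lower by the second quantification, and 10 of the 14 at 1 TPM or more in both libraries were lower by more than 1.5 times. Of the 37, 9 were higher, and the median log2 ratio of the second over the first was -0.54, against 0.14 for the protein-coding genes.

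**Figure D2:**
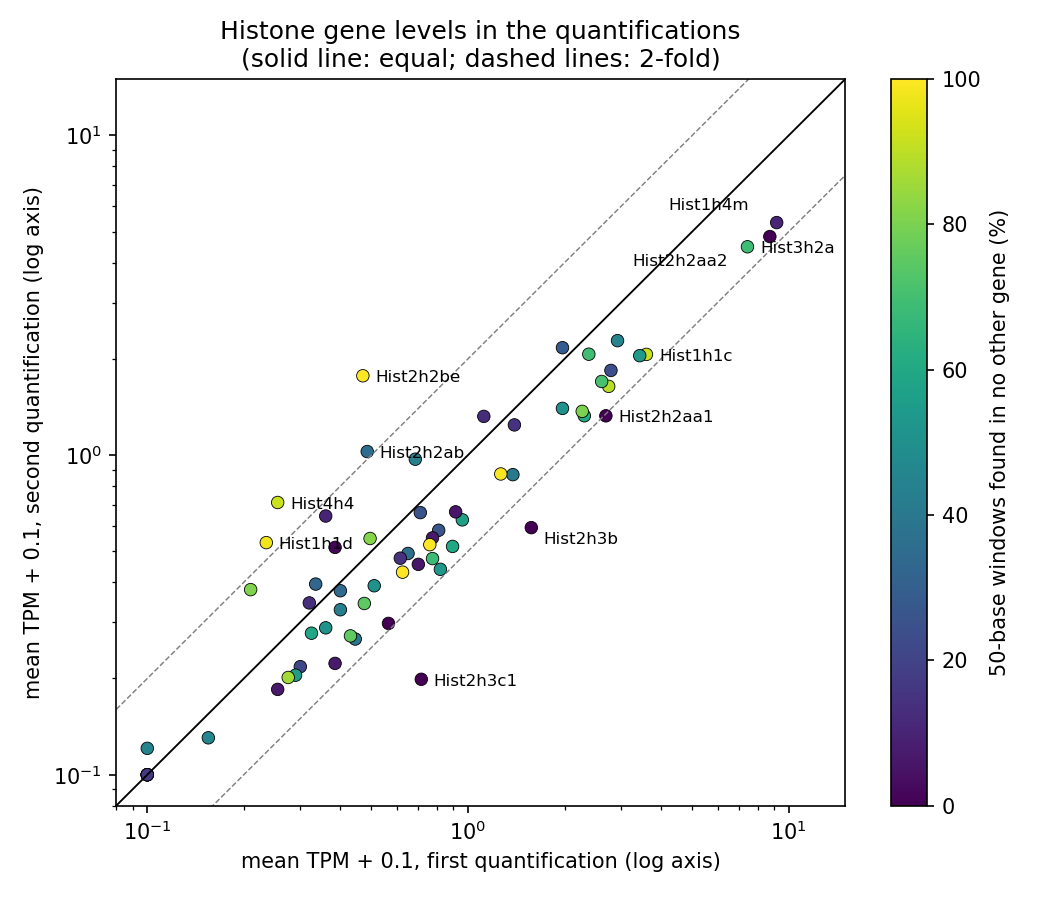
Mean TPM + 0.1 of each clustered histone gene by the first (x) and the second (y) quantification, both on log axes, coloured by the percent of its 50-base windows found in no other gene. Hist2h2be, Hist4h4 and Hist1h1d lie above the upper dashed line although they share few windows, and Hist2h3c1, with no unique window, lies below the lower line.

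The members were lower in replicate 2 than in replicate 1. Ratios were taken on counts scaled by TMM, which sets the bulk of genes equal, with a prior count of 2, over genes with a mean estimated count of 20 or more. With 1 library on each side they have no replicate check and are a description. Of the 16 members that passed, 15 were lower in replicate 2 and 9 (56.2%) were lower by more than 2-fold, against 2.96% of 10172 protein-coding genes. None was higher by more than 2-fold, against 0.806%. The median log2 ratio was -1.11 over the members and -0.02 over the protein-coding genes. By the second quantification, 16 of 20 members were lower, 10 of them by more than 2-fold against 3.27%, and none was higher by more than 2-fold against 6.70%. On raw TPM the median protein-coding gene was itself shifted by 0.38 on the log2 scale toward replicate 2.

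Among the members that passed, the largest differences were in Hist1h2be (log2 ratio -2.19), Hist2h2aa2 (-2.03), Hist1h4m (-1.61), Hist2h2ac (-1.46) and Hist1h2bg (-1.43). Hist3h2a, with the most counts, had a ratio of -1.29, a 2.46-fold difference with an exact 95% counting interval of 2.07 to 2.92. That interval takes as given the split of reads with Trim17, with which Hist3h2a shares 660 of its 2097 windows. Trim17 had 91.0 counts in replicate 1 and 79.0 in replicate 2. Hist1h1c was 1.93-fold lower (1.46 to 2.59). Hist1h2bc (-0.36) and Hist2h2be (0.04) differed least. By the second quantification, Hist2h2be, with many more counts there, had -1.19, Hist1h2bc 0.12, Hist1h2be -1.09 and Hist2h2ac -0.94. Hist1h2bg had -2.11, the lowest of these genes on that scale, while Hist2h2aa2 (-1.85), Hist1h4m (-1.31) and Hist3h2a (-1.24) moved less. The counting intervals cover the number of reads only and take the assignment between copies as given. That assignment matters for Hist2h2aa2: summed with Hist2h2aa1, the difference was 1.98-fold (1.43 to 2.78), where Hist2h2aa2 alone gave 4.32-fold. This sum still takes as given the split of reads with the overlapping predicted genes Gm20632, Gm20633 and Gm20634. On either strand, every window of Hist2h2aa1 is also in Gm20633. Hist1h4m and Hist1h4n together were 4.003-fold lower in replicate 2 (2.38 to 7.14), and the sum does not depend on how their reads were split. Hist1h4n itself, at 18.8 counts and 0, was at least 4.22-fold lower against a floor of 3 counts in replicate 2, and the exact 95% interval, which also covers the counting error of replicate 1, starts at 3.14-fold.

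The filter on counts left out members that were higher in replicate 2. Just inside it were Hist1h2bg and Hist2h2be, each with a mean of 22 counts. Just outside were Hist2h2aa1, with a mean of 19.0 counts and a log2 ratio of 2.00, and Hist2h3c1, with 17.4 counts and 3.96. With a filter of 10 counts, 24 members passed, 13 of them lower by more than 2-fold and these 2 higher. With a filter of 50, 5 members passed, of which Hist2h2aa2 and Hist3h2a were lower by more than 2-fold. The share of protein-coding genes beyond 2-fold at these filters is not given here, so these counts are not set beside a background. The 3 Hist2 H3 genes together were 4.80-fold higher in replicate 2 (2.75 to 8.82). By the second quantification they were 1.95-fold higher (1.12 to 3.48). These intervals take as given the split of reads with the overlapping predicted genes Gm20628 and Gm20634. On either strand, every window of Hist2h3b is also in Gm20628, and every window of Hist2h3c1 in Gm20634. By the first quantification, Gm20628 had 35.97 and 12.1 counts in replicates 1 and 2, and Gm20634 had 121.4 and 58.08. By the second, Gm20628 had 74.4 and 34.24, and Gm20634 had 112.9 and 118.5. A sum that includes these predicted genes was not tested.

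By class, the summed counts were lower in replicate 2 by 2.14-fold for H1 (1.71 to 2.71), 2.49-fold for H2A (2.16 to 2.88), 2.08-fold for H2B (1.62 to 2.70) and 2.15-fold for H4 (1.79 to 2.61). The sum of the H3 genes went against this in the first quantification, at 0.753-fold (0.556 to 1.02). In the second it was 1.31-fold lower in replicate 2 (0.991 to 1.74). Its direction thus changed with the quantification, and both intervals hold 1. This sum includes the Hist2 H3 genes, whose counts depend on the split of reads with predicted genes. The sum over all members was 2.09-fold lower (1.91 to 2.28), and 1.96-fold lower (1.77 to 2.17) without Hist3h2a.

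Length and library composition differed along with these ratios. All 67 members had a median effective length of 311 bases in replicate 1, against 2142 for protein-coding genes at 1 TPM or more. Over 219 other protein-coding genes with an effective length under 500 bases, the median log2 ratio was -0.39, and 13.2% of them were lower by more than 2-fold. Relative to these short genes, the median of all 16 members that passed, 11 of them not short, was -0.71. Among the 16 members that passed, the 5 under 500 bases had a median of -1.46 and the 11 longer ones of -0.97. Over 5193 protein-coding genes with a GC content between the quartiles of the 16 members that passed (45.9% and 55.8%), the median was -0.03. Of the 13 members with at least 80% unique windows, 7 passed the count filter. They had a median of -0.97, with 6 lower in replicate 2. The mitochondrial share and the amount of starting RNA also differed between the libraries, and their part in the result was not tested.

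**Figure D3:**
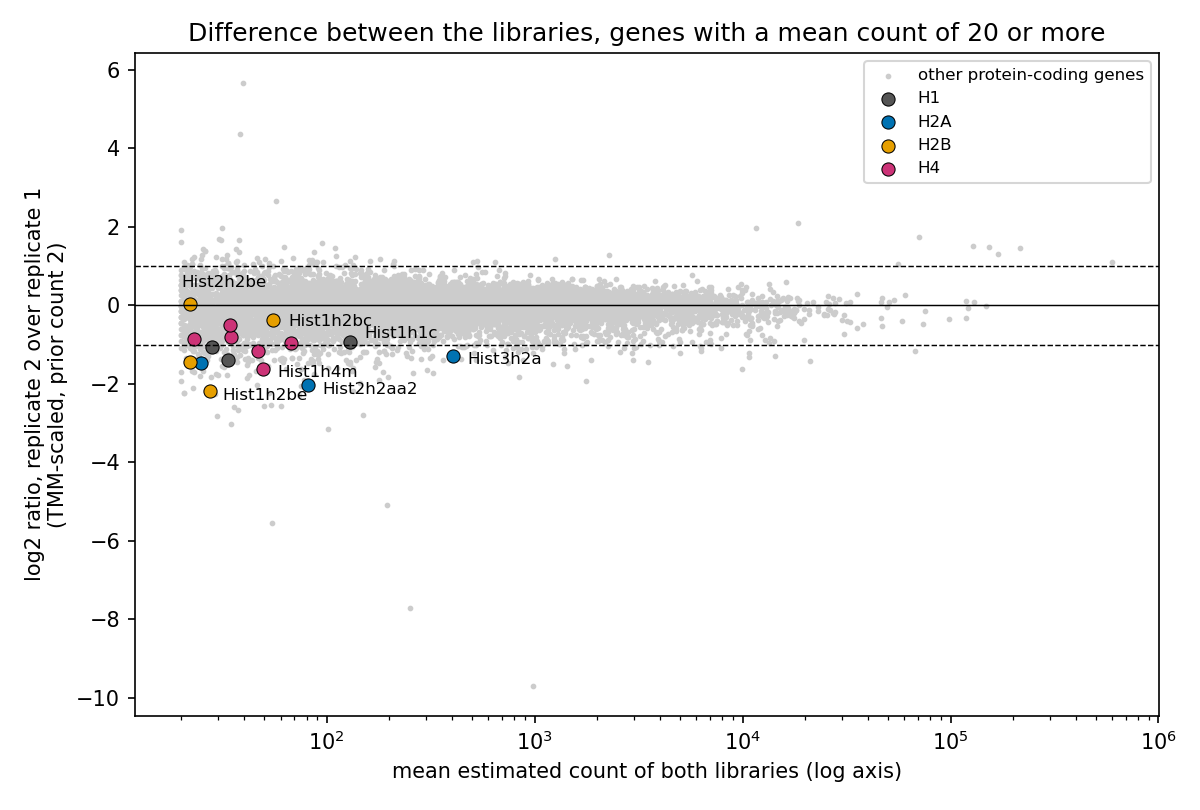
Log2 ratio of replicate 2 over replicate 1 (TMM-scaled estimated counts, prior count 2) against the mean estimated count (log axis) for protein-coding genes with a mean of 20 or more, the clustered histone genes coloured by class. Of the 16 histone genes shown, 15 lie below 0 and 9 below the lower dashed line at -1, and no H3 gene had enough counts to be shown.

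Promoters were read from RefSeq for assembly GRCm38.p6, the same assembly as mm10, as 250 bases before to 50 bases after the gene's start. There were 63 promoters for 62 members, and none for Hist1h2bc, Hist1h3a, Hist1h3f, Hist2h2be and Hist2h4. Exact matches on both strands were sought to TATAAA, the core of the TATA box. The same was done for the letters CCAAT, a box bound by the factor NF-Y. The last motif was ATTTGCAT, the octamer to which the factor Oct1 binds. None of these motifs contains another. The promoters shown, with matches in capitals, are those of the highest H1 gene, of an H2B gene that faces an H2A gene, of an H3 gene with repeated CCAAT matches, of an H4 gene with a CCAAT match and of the highest H4 gene.
Hist1h1c: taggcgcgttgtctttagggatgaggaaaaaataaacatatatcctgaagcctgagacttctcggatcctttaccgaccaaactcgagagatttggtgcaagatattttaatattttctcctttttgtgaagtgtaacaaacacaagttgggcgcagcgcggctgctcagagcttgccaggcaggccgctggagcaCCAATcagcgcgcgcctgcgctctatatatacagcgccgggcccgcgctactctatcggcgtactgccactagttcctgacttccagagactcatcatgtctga
Hist1h2bg: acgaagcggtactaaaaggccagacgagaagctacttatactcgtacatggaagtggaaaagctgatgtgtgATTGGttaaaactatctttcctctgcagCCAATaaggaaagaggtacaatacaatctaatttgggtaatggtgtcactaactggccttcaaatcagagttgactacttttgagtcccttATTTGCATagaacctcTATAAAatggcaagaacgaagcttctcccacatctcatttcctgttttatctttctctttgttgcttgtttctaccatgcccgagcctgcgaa
Hist1h3c: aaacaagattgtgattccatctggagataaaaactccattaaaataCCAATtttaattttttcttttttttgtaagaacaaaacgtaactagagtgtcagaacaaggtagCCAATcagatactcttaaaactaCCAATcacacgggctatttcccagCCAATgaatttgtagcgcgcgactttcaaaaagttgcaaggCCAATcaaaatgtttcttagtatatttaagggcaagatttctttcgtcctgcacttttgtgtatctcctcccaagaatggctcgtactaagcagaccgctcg
Hist1h4d: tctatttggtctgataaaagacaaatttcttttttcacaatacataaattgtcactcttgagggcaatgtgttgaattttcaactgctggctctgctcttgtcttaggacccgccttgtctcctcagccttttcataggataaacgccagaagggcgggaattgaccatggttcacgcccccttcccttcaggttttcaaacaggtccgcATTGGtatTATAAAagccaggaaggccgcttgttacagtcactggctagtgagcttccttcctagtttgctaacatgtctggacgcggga
Hist1h4m: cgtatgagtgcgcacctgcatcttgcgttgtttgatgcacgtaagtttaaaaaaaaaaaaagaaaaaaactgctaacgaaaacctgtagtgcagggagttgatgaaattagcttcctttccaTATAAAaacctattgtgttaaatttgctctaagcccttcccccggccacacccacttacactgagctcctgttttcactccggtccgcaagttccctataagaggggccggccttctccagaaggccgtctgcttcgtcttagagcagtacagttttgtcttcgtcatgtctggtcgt
They lie at chr13:23738557-23738856 (Hist1h1c, plus strand), chr13:23571150-23571449 (Hist1h2bg, plus strand), chr13:23745472-23745771 (Hist1h3c, minus strand), chr13:23581318-23581617 (Hist1h4d, plus strand) and chr13:21811496-21811795 (Hist1h4m, plus strand). The Hist1h2bg window reaches across the intergenic stretch to the divergent H2A gene Hist1h2ae.

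The motifs were split by histone class. The CCAAT box was in all 6 H1, 18 H2A, 17 H2B and 10 H3 promoters and in 3 of 12 H4 promoters (Hist1h4a, Hist1h4c and Hist1h4d), against 37.4% of all 32851 promoters. In 45 promoters it occurred more than once. The octamer was in 38.9% of the H2A and 41.2% of the H2B promoters and in none of H1, H3 or H4, against 1.74% of all promoters. Every H2B promoter with the octamer had it on the gene's strand, and every such H2A promoter on the opposite strand. On either strand, the TATA box was in 55.6% of the members' promoters, from 4 of 10 in H3 to 8 of 12 in H4, against 13.6% of all. On the gene's strand it was in 47.6%, against 8.32% of all, and H2B was the lowest class there, with 4 of 17. In 16 of the 63 promoters it lay 20 to 50 bases before the start, and the match shown for Hist1h4m lies farther upstream. These matches are letters in a window and do not show binding.

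**Figure D4:**
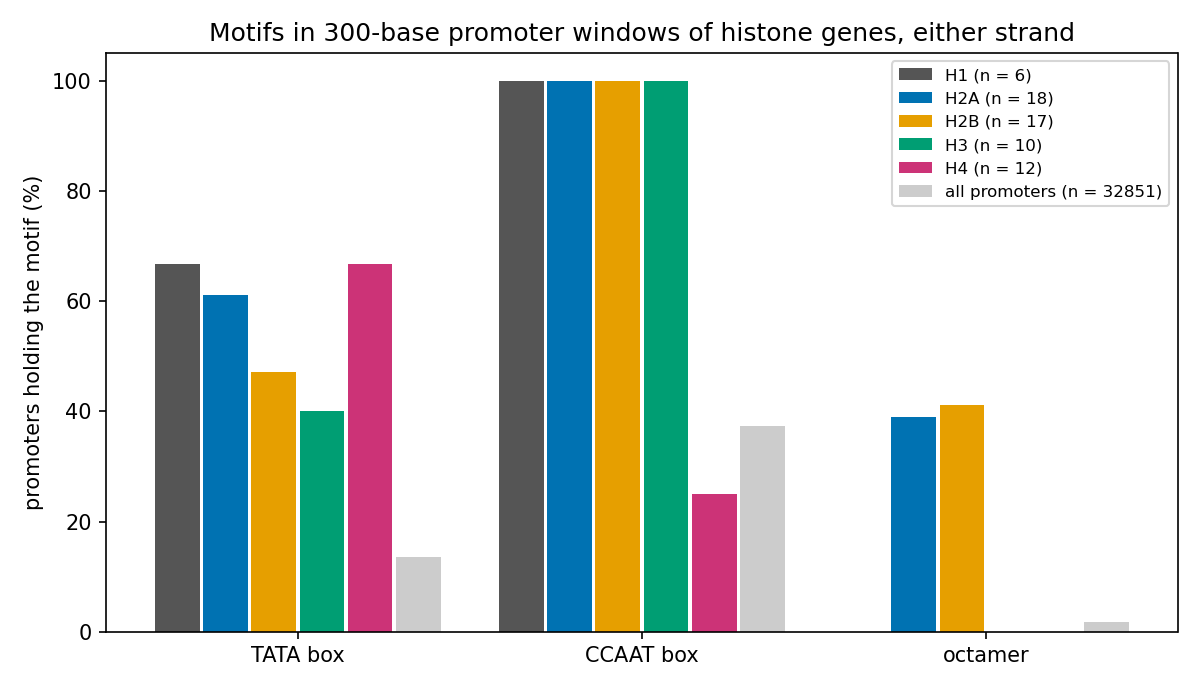
Percent of promoter windows that hold an exact match to each motif on either strand, by histone class and for all RefSeq promoters. The CCAAT box reaches 100% in H1, H2A, H2B and H3 and stands at 3 of 12 promoters in H4, and the octamer occurs in H2A and H2B among the histone classes.

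The promoter counts are not independent, because 12 H2A genes face an H2B gene across 176 to 306 bases and their windows overlap. Within these pairs the partners were compared by mean TPM of the first quantification. In 5 pairs the H2A gene was higher, in 6 the H2B gene, and Hist1h2aa and Hist1h2ba were both at 0. In several pairs neither gene had a mean of 3 counts, so the order of these partners was not resolved. Hist1h2ad and Hist1h2bf, with mean counts of 2.85 and 2.05, changed order by the second quantification. In 4 pairs 1 partner had a mean of 1 TPM or more, and in no pair did both. As a difference in TPM, the widest gap was between Hist2h2ac, at a mean of 2.83 TPM, and Hist2h2be, at 0.370 TPM by the first quantification. By the second they stood at 2.18 and 1.67 TPM, so this gap depended on the quantification. The ratio was wider for another pair: Hist1h2bc stood at 2.28 TPM against 0.175 for its partner Hist1h2ac, and at 1.97 against 0.102 by the second.

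The histone variants encoded outside the clusters, which are for the most part made throughout the cell cycle from polyadenylated mRNAs, had higher levels. The 11 variant genes summed to 197 TPM in replicate 1 and 207 TPM in replicate 2, with a median of 5.08 and 4.44 TPM. Of the 11, 7 passed 1 TPM in both libraries, against 39.1% of all protein-coding genes. H3f3b, a gene of the replacement histone H3.3, stood at 93.6 and 92.3 TPM, where all 12 clustered H3 genes summed to 6.55 and 7.72 TPM. H2afy, the gene of macroH2A1, stood at 46.9 and 62.5 TPM, and H2afz, the gene of H2A.Z, at 29.4 and 20.0 TPM. Of the 9 variants with a mean of 20 or more counts, 4 were lower in replicate 2, none by more than 2-fold, and the median log2 ratio was 0.10. H2afz had the lowest, at -0.96. In the second quantification H2afz was lower by more than 2-fold (-1.19), and the median ratio was -0.06. There, H2afz stood at 14.5 and 9.06 TPM and H3f3b at 57.2 and 53.6 TPM.

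The machinery that makes and ends histone mRNA was present at moderate levels. Of its 21 listed genes, 19 were found by symbol in the files, with a median of 3.38 and 4.37 TPM. Of these, 14 passed 1 TPM in both libraries, against 39.1% of all protein-coding genes. Slbp, the stem-loop binding protein gene, stood at 4.88 TPM in replicate 1 and 8.14 TPM in replicate 2. Npat, the activator of histone transcription in S phase, stood at 3.33 TPM in both. Casp8ap2, a partner in histone locus bodies, stood at 0.980 and 2.16 TPM (1.74 and 3.06 TPM by the second quantification), and Lsm11, a U7-specific protein gene, at 1.02 and 1.11 TPM. The U7 RNA gene Rnu7 was listed at 0 in both libraries. Both libraries are labelled with a size range of 250 to 400. How well small RNAs were captured was not tested, so the 0 does not show absence. The highest were Srrt (38.0 and 56.9 TPM), Sympk (12.5 and 15.5 TPM) and Upf1 (10.5 and 12.5 TPM), which act in cap-dependent processing, in cleavage and in decay. Of 18 with a mean of 20 or more counts, 10 were lower in replicate 2, with a median log2 ratio of -0.04, and Lsm4 alone was lower by more than 2-fold (-1.33).

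Genes of S phase and replication gave a level to set beside the histone genes. Of 30 listed, 14 passed 1 TPM in both libraries, against 39.1% of all protein-coding genes. The median of the list was 1.15 TPM in replicate 1 and 1.13 TPM in replicate 2. Mki67, the proliferation antigen gene, stood at 26.4 and 31.5 TPM, Pcna, the replication clamp gene, at 18.8 and 20.0 TPM, and Tk1, the thymidine kinase gene, at 8.41 and 7.95 TPM. Of 24 with a mean of 20 or more counts, 18 were lower in replicate 2, none by more than 2-fold, with a median log2 ratio of -0.23, where the 16 histone genes had -1.11. Histone chaperones, which carry histones to and from DNA, passed 1 TPM in 13 of 15 genes, against 39.1% of all protein-coding genes. Their median was 7.16 and 8.55 TPM. Daxx, an H3.3 chaperone, stood at 91.5 and 73.8 TPM, its partner Atrx at 22.2 and 31.5 TPM, and Nap1l4 at 11.1 and 14.4 TPM. Of the 14 chaperone genes with enough counts, 8 were lower in replicate 2, none by more than 2-fold, with a median of -0.10. Daxx (-1.10) was lower by more than 2-fold in the second quantification, as was E2f2 of the S phase list (-1.43). That quantification put Nap1l4 at 24.7 and 47.4 TPM and Atrx at 29.1 and 53.9 TPM.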

How the data were processed

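The 2 libraries form 1 group. Per the file headers and notes, the authors' deposited values come as tables per gene and per transcript based on reads aligned to the mm10 transcriptome of GENCODE M21 (the first quantification), and a transcript table made from 10 read files per library (the second). The software for alignment and quantification is not given in the sources used here. Estimated counts, as deposited, carry no normalization and need not be whole, and were rounded for scaling. The deposited TPM have the same sum in each library, over all features. The deposited FPKM served as an alternative. The bounds of TPM that the authors deposited (a signal) were used only to compare neighbours in level, and the deposited effective lengths to describe length. Rows that are no annotated gene (spike-in and tRNA rows, 1.14% and 0.304% of the counts in the first quantification, 0.923% and 0.194% in the second) stayed out of totals and scaling.

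Gene levels of the second quantification are sums over transcripts. Library ratios used edgeR 4.0.16 (TMM, prior count 2) on genes with a mean count of 20 or more, with DESeq2 1.42.0 size factors as an alternative, in R 4.3.3. The step was tested on simulated data. Computation otherwise used Python 3.11.15, pandas 2.3.3, numpy 2.4.6, scipy 1.17.1 and matplotlib 3.10.9. Shares have Wilson intervals and ratios exact binomial ones, both at 95%. They and the floor of 3 counts cover counting error only. Windows of 50 bases were compared with all annotated transcripts.

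The members and the gene lists were chosen with earlier results of these data known. Named members were the 3 with the highest mean TPM per class, those at 1 TPM or more in both libraries by either quantification, and the 5 that differed most between quantifications (with 10 or more counts) and between libraries (20 or more). Named list genes were the 3 highest per list and Slbp, Npat, Casp8ap2, Lsm11, Rnu7, Mki67 and Pcna. Protein sequences were not used here.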

Additional observations from a re-analysis of the deposited data

How the results depend on the processing

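The lower level of the members in replicate 2 kept its direction under all 11 alternatives run. The median log2 ratio of -1.11 became -0.97 with a minimum mean count of 50, with no minimum, or with members of at least 80% unique windows, and -0.71 relative to short genes. The last 2, the GC range and leaving out Hist3h2a were chosen after seeing the data. The number beyond 2-fold, 9, became 15 with a minimum of 10 counts and 2 with 50, as more or fewer members passed. For the 15 and the 2, no share of protein-coding genes is given beside them.

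The 14 members at 1 TPM or more became 2 at 5 TPM, 28 with TPM rescaled to protein-coding genes, and 17 to 24 with each replicate alone. On the rescaled values, 47.0% of the protein-coding genes passed. That rescaling moved the median level from 0.450 to 1.72 TPM. As a share of protein-coding counts outside the mitochondrial genome, the members held 0.0105%. For the other results, leaving out a replicate gives the single-library values of the report. By estimated counts, the class shares were 15.2% for H1, 40.9% for H2A and 22.8% for H4. Leaving out the highest member of a class must lower its share. The shares were then 2.63% for H1, 25.6% for H2A, 8.89% for H2B, 7.95% for H3 and 29.9% for H4. The second quantification gave 16.5% for H2B, 36.1% for H4, 25.3% for transcripts without a stem-loop, and list medians of 2.93 TPM (histone mRNA processing), 3.01 TPM (variants) and 1.28 TPM (S phase). It moved 10 of 26 named members by more than their SD. The octamer share was 11.1% on the gene strand only, since the H2A matches lie on the other strand.

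No paired analysis was possible because there is only 1 group. With 2 libraries of the same donor entry, an SD has 1 degree of freedom, and the lower members rest on few reads.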

Other observations

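On chromosome 13 the members fell into separate blocks 1487374 bases apart. The block at chr13:21715763-22043676 held 23 members, of which 3 passed 1 TPM in both libraries, with a median of 0.515 TPM. The block at chr13:23531050-23934851 held 31 members, of which 8 did, with a median of 0.410 TPM.

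The copies Hist1h2bq and Hist1h2br, which share a short transcript, had 15.98 estimated counts together in replicate 1 and 3.04 in replicate 2 by the first quantification. By the second they had 76.8 and 36.6. Their summed level was 0.970 and 0.170 TPM by the first and 0.621 and 0.454 TPM by the second. They were chosen after their values were seen.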
